A study of Mus musculus with 6 samples.

Results

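Genes that add ubiquitin to proteins, take it off, or degrade what carries it were examined for nearby Ikaros peaks in natural killer (NK) cells of the mouse. Members were the protein-coding genes of the peak lists whose names start with Ube2, Ube3, Ube4, Herc, Cul and a digit, Fbxo, Fbxw, Fbxl, Klhl, Rnf, Trim, March, Usp, Otud or Psm. The rule found 61 genes of 2145 protein-coding gene names in all, and each member had 1 region. A name is not a function, and the rule took a few genes, such as Rnf212 and Psmd5, that are not ligases, deubiquitinases or proteasome subunits in the strict sense.

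Ikaros, the zinc finger protein encoded by Ikzf1, was immunoprecipitated from wild type (WT) splenic NK cells and from NK cells whose Ikzf1 was deleted through an NKp46-dependent knockout, 3 samples of each. Cells of both genotypes were grown in IL-15 at 50 ng/ml, crosslinked in 2% formaldehyde and sheared to 100 to 200 bp. Only the lists of WT replicates 1, 2 and 3 were used, with 685, 2084 and 1342 peaks, and the knockout was not analysed here. Nothing in the labels gives the strain, age or sex of the mice, or says whether the 3 WT libraries are biological or technical repeats. Differences between lists therefore measure the spread between these libraries only. Peak lists hold no expression, so the labelled cell type could not be checked from marker genes. No read counts came with the lists, so the depth is unknown, and a gene missing from a list cannot be called unbound.

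As background, ubiquitin passes from an activating enzyme (E1) to a conjugating enzyme (E2), and a ligase (E3) chooses the protein that receives it. Cullin ligases are built from a cullin scaffold, a RING protein and exchangeable receptors, such as F-box proteins on Cul1 and Kelch proteins on Cul3. Deubiquitinases of the USP and OTU families remove the mark, and the proteasome degrades proteins that carry it. Ikaros is itself a target of this system in human cells. There, drugs of the thalidomide class direct the cullin ligase that holds Cereblon (Crbn) to Ikaros and Aiolos.

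Of the 452 genes with these prefixes in the reference gene table, 61 had a region in any list (13.5%, 95% Clopper-Pearson interval 10.5 to 17.0), against 9.51% of all 21900 protein-coding genes. For regions in 2 or more lists the count was 28 of 452 (6.19%, interval 4.16 to 8.83) against 4.43%, and for regions in all lists 10 of 452 (2.21%, interval 1.07 to 4.03) against 2.01%. The share thus stood above that of all genes for any list, while for both stricter counts the interval held the share of all genes. The share of all genes counts every protein-coding gene, including those silent in NK cells, and gene activity was not matched. Intervals cover counting error over genes only.

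Of the 61 members, 28 (45.9%, interval 33.1 to 59.2) had a region in 2 or more lists, against 46.9% of all protein-coding gene names in the lists. All lists held a region for 10 members (16.4%, interval 8.15 to 28.1) against 21.7%. Replicates 1, 2 and 3 listed 16, 45 and 38 members, which were 2.58%, 2.57% and 3.05% of the protein-coding genes in each list. Regions of 19 members were in the list of replicate 2 alone, 12 in that of replicate 3 alone and 2 in that of replicate 1 alone. Without replicate 2 or without replicate 3, 12 members kept a region in both remaining lists (28.6% and 24.5% of those listed, against 36.8% and 28.8% of all protein-coding names). With the lists cut to equal length by p, 11 of 33 members were in 2 or more lists (33.3%, interval 17.96 to 51.83, against 51.72%) and 7 in all (21.2%, interval 8.98 to 38.9, against 28.6%). For regions shared by 2 or more lists or by all, the members' share was thus below that of all names in each of these counts. It was not so with only peaks within 1 kb of the gene by the authors' distance. There 47.5% of members were in 2 or more lists (interval 34.3 to 60.9) against 46.9%, and 16.9% in all against 22.0%. The intervals of all these counts held the shares of all names, at equal length only just for 2 or more lists.

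**Figure D1:**
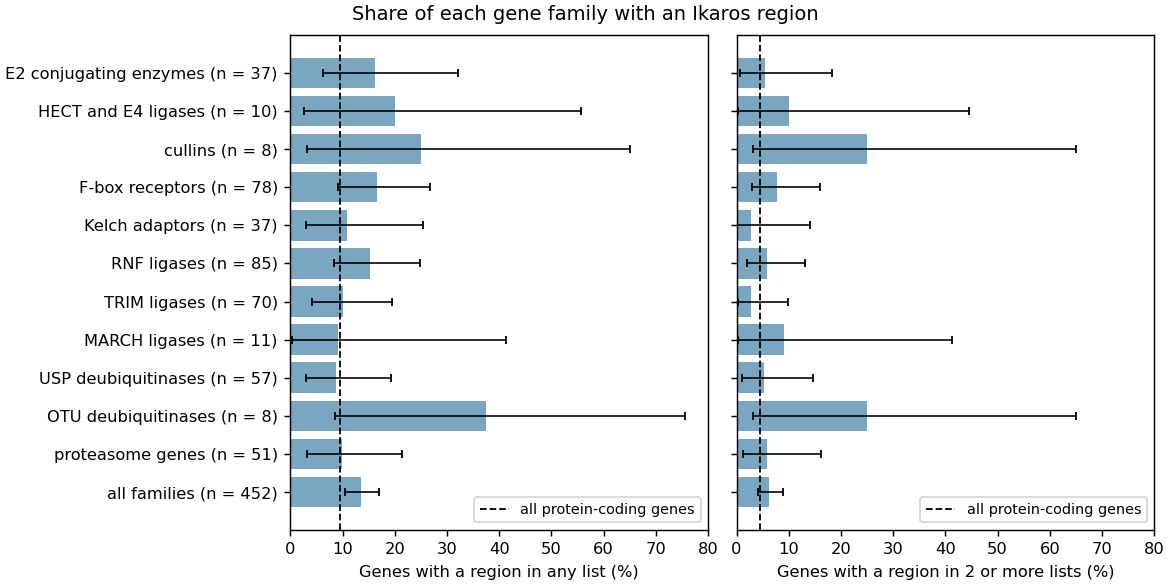
Percent of the genes of each family in the reference gene table with an Ikaros region in any list (left) and in 2 or more lists (right). Bars are shares, whiskers are exact 95% intervals, and the dashed line is the share of all protein-coding genes (9.51% and 4.43%). Whiskers of single families are wide, and those of all families together begin above the dashed line on the left (10.5%) and below it on the right (4.16%).

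Single families were too small to be told apart. F-box receptors had 13 of 78 genes with a region, RNF ligases 13 of 85, TRIM ligases 7 of 70 and E2 enzymes 6 of 37. USP deubiquitinases had 5 of 57, proteasome genes 5 of 51, Kelch adaptors 4 of 37 and OTU deubiquitinases 3 of 8. HECT and E4 ligases had 2 of 10, cullins 2 of 8 and MARCH ligases 1 of 11. The highest shares, 37.5% for OTU deubiquitinases (interval 8.52 to 75.5) and 25.0% for cullins (interval 3.19 to 65.1), rested on 3 genes and 2 genes.

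Regions of members sat mostly at gene starts. The table of promoters used here, RefSeq on GRCm38.p6, gave a start for 48 of the 61 members. Of these, 37 (77.1%, interval 62.7 to 88.0) had the region's midpoint within 1 kb of the start, against 62.2% of the 1814 gene and region pairs of all protein-coding names with a start. Within 250 bases the share was 60.4% (interval 45.3 to 74.2) against 45.6%. The interval thus began just above the share of all pairs at 1 kb and held it at 250 bases. Midpoints lay upstream of the start in 23 of the 37 (62.2%, interval 44.8 to 77.5, against 56.8% of all pairs within 1 kb), and the median distance was 161 bases against 317. By list, 92.3%, 71.1% and 92.6% of member peaks in replicates 1, 2 and 3 lay within 1 kb (mean 85.3%, SD 12.4, n = 3), against 66.3%, 59.3% and 68.9% of the peaks of all protein-coding genes (mean 64.8%, SD 4.97). Members were thus higher in each of the 3 lists, which share many regions and are not independent.

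**Figure D2:**
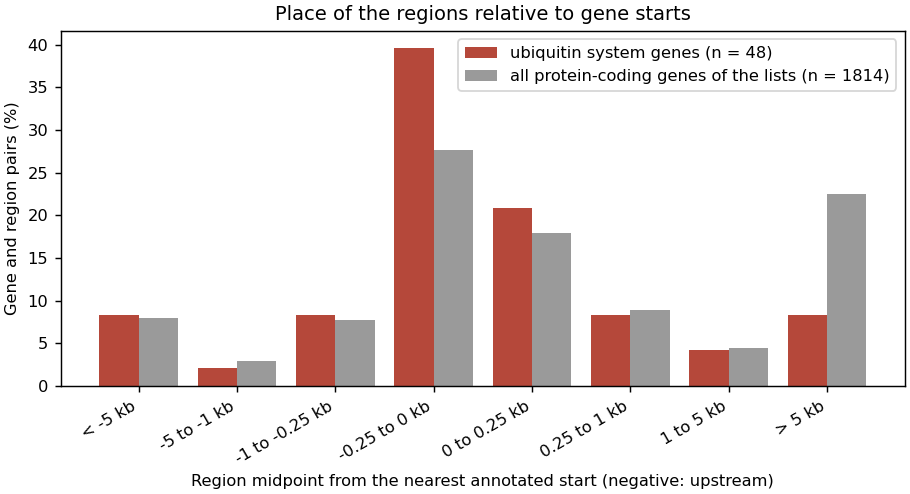
Distance of region midpoints from the nearest annotated start, in bins of kb, as percent of the 48 members with a start (red) and of all 1814 gene and region pairs (grey). The bin from 0.25 kb upstream to the start held 39.6% of members and 27.6% of all pairs, and the bin beyond 5 kb downstream held 8.33% and 22.4%.

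The 13 members without a listed start included Otud7b, Fbxo3 and Trim33, and in 11 of them the midpoint lay within 1 kb of either end of the gene. Listed starts can also miss the end of a gene. The Rnf20 region overlapped an end of its gene, 0.055 kb from the midpoint. It was counted as farther than 1 kb because the nearest listed start was 6565 bases away. By the authors' smallest distance, 6 members lay outside their region. Of these, 4 were within 1 kb of it, and Klhl2 (21856 bases) and Trim52 (78932 bases) were named from afar. Of the 61 regions, 8 also named another protein-coding gene (13.1%, interval 5.84 to 24.2, against 15.9% of all pairs). Those were the regions of Ube2v1, Rnf166, Fbxo3, Fbxw7, Rnf167, Ube3b, Klhl9 and Usp37. Start sites of 4 members with a region within 1 kb faced that of another coding gene on the opposite strand within 1 kb, namely Psme2 with Rnf31, Rnf167 with Slc25a11, Ube3b with Kctd10 and Usp37 with Cnot9. That was 10.8% of the 37 (interval 3.03 to 25.4), against 15.5% of all protein-coding genes with a region within 1 kb of their start. A peak between such starts cannot be given to 1 of the genes. Rnf31 encodes the catalytic subunit of the ligase that makes linear ubiquitin chains, and the authors' gene column did not name it there.

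Promoters under these regions were rich in CpG, as were those under other regions, and most held the Ikaros core. The core was searched as GGGAA, the longer form as TGGGAA and the core of ETS factors as CCGGAA, each on both strands of 300 bases from 250 before to 50 after a start. A GGGAA and a CCGGAA cannot take the same GGAA, but matches on opposite strands can overlap by a base. Among 34 members with a region over a listed promoter, 27 held GGGAA (79.4%, interval 62.1 to 91.3), against 68.5% of the 1029 protein-coding genes with a region over a promoter and 62.6% of all 17492 with a listed promoter. TGGGAA was in 12 (35.3%, interval 19.7 to 53.5) against 21.8% and 24.5%, and CCGGAA in 11 (32.4%, interval 17.4 to 50.5) against 38.0% and 19.1%. These counts took 1 promoter per gene, though the 34 members had 37 promoters under regions. Psme2 was not counted for TGGGAA, which was in its promoter with the start at 55591021 but not in that at 55591101. Counted this way, the members' interval held both the share of genes with a region and that of all promoters for all 3 motifs. With Psme2 counted for TGGGAA, the interval was not computed and might not hold the 21.8%. GC content moved with having a region: its median was 65.2% for members and 65.7% for all genes with a region, against 56.3% over all promoters, with medians of 27, 27 and 13 CpG. Its part in the motif shares was not tested, and a match is not a binding site.

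Upstream bases of 6 members are shown because they span what was found: several cores, 1 core, none, and a promoter with no CpG. Each runs 5′ to 3′ on the gene's strand up to the base before the start (RefSeq, GRCm38.p6), with GGGAA or TTCCC and CCGGAA or TTCCGG in capitals. Positions are chr2:167632006-167632255 for Ube2v1 (minus strand), chr10:95514912-95515161 for Ube2n (plus), chr7:127746028-127746277 for Fbxl19 (plus), chr9:48985135-48985384 for Usp28 (plus), chr9:53667508-53667757 for Cul5 (minus) and chr7:104446126-104446375 for Trim30a (minus).
Ube2v1: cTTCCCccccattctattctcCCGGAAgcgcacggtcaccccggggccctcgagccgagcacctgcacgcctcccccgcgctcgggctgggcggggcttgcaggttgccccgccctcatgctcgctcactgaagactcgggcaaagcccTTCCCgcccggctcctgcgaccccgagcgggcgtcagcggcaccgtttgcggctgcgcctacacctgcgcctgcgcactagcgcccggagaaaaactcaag
Ube2n: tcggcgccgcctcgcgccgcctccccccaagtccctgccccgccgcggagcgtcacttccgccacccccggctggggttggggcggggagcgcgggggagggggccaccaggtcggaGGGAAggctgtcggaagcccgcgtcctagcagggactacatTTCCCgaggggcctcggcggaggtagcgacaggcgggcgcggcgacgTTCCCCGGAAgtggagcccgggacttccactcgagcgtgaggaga
Fbxl19: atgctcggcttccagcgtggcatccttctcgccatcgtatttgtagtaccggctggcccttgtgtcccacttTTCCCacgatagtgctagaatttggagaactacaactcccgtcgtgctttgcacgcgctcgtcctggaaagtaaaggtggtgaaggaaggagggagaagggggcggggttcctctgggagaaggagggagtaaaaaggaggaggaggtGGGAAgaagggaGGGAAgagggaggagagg
Usp28: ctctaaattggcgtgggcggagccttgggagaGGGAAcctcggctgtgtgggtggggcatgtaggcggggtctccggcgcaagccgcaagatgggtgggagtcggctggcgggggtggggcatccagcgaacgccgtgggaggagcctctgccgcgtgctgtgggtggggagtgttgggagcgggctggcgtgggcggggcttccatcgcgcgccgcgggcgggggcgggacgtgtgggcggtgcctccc
Cul5: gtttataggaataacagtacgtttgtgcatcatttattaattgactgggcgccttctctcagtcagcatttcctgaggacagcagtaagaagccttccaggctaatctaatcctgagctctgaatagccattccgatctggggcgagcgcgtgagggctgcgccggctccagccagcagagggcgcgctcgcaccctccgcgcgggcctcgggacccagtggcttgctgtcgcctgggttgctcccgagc
Trim30a: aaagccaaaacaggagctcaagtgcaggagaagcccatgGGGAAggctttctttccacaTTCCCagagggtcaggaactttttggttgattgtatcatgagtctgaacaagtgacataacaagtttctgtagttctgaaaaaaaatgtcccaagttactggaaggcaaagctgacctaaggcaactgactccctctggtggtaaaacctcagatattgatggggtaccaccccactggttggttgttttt

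In these upstream bases Ube2v1 held 2 GGGAA cores and 1 CCGGAA, Ube2n 3 and 1, and Fbxl19 3 GGGAA with no CCGGAA. Usp28 held 1 GGGAA, Trim30a 2, and Cul5 neither motif although its region was in all lists. CpG numbered 28 for Ube2v1, 32 for Ube2n, 12 for Fbxl19, 26 for Usp28, 17 for Cul5 and 0 for Trim30a. Of the 8 members with a region of all lists over a promoter, 5 held GGGAA in the 300 bases (62.5%, interval 24.5 to 91.5), and Cul5, Rnf24 and Fbxl4 did not.

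**Figure D3:**
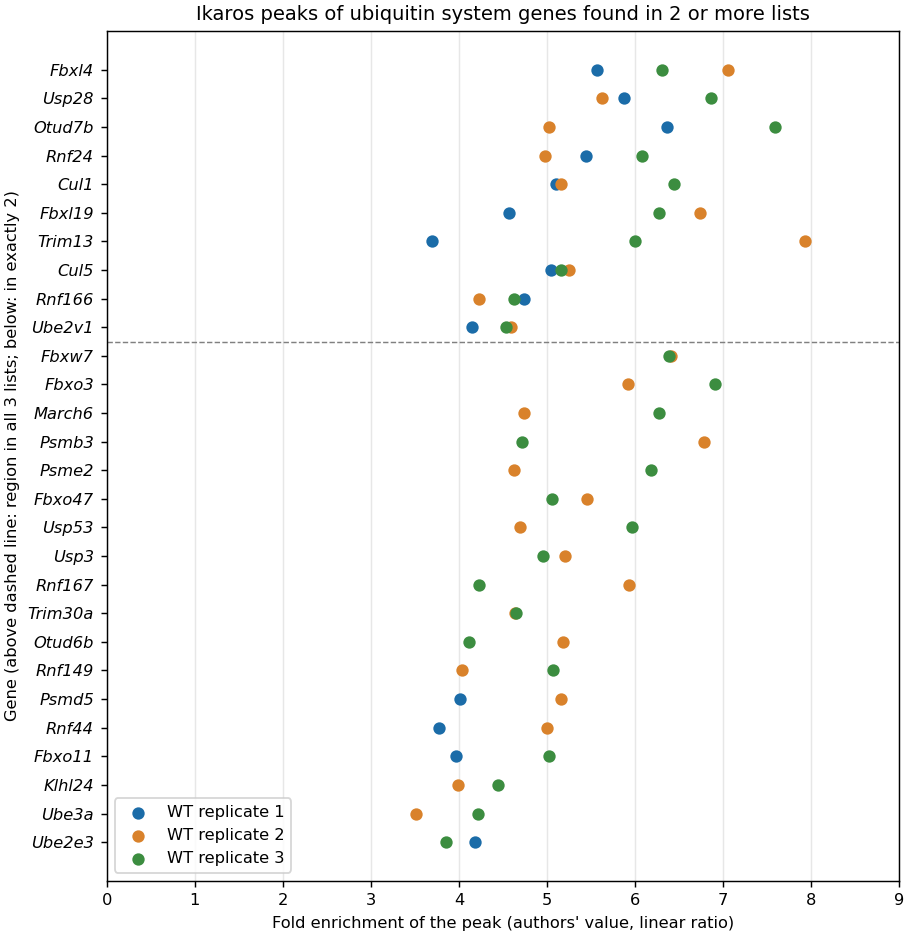
Fold enrichment (horizontal axis, linear ratio given by the authors) of the peaks of the 28 members with a region in 2 or more lists, with 1 point per WT replicate. Values ran from 3.51 (Ube3a, replicate 2) to 7.93 (Trim13, replicate 2), and the widest spread between replicates was that of Trim13.

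Below, fold enrichment is the value the authors gave a peak, and its percentile is its rank within its own list, 100 being the strongest peak. Fold enrichments of different lists are set side by side and were not tested against each other. Ensembl identifiers are those of the lists, coordinates are mm10, and exons, introns and UTRs were not assigned.

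Among E2 enzymes, which carry ubiquitin to the ligase, Ube2v1 (ENSMUSG00000078923) was the 1 with a region in all lists. It encodes an inactive E2 variant that pairs with Ube2n to build signalling chains. Its region, on chromosome 2, 167631557 to 167632300, was centred 76.5 bases past the start, and the protein-coding gene model Gm20431 was named there too. Fold enrichments were 4.14, 4.60 and 4.54 in replicates 1, 2 and 3, at percentiles of 13.6, 45.1 and 33.5, so the peak ranked below the median of every list. Ube2e3 had a peak in replicates 1 and 3 (4.18 and 3.86). Ube2n, the active partner of Ube2v1, had a peak in replicate 3 alone (3.84). Ube2d3, an E2 that works with many ligases, Ube2e1 and Ube2z were also in replicate 3 alone, at 3.70, 5.10 and 3.57. All 6 E2 genes were thus in the list of replicate 3, 2 in that of replicate 1 and 1 in that of replicate 2, the longest list. Of the 2145 protein-coding names, these lists held 1247, 621 and 1752. In replicate 3 the percentile was 53.5 for Ube2e1 and between 2.50 and 33.5 for the other 5, so most of these peaks were near the bottom of that list. This family was singled out after its values were seen.

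Cullins, the scaffolds of the largest ligase class, were listed for 2 of 8 genes, and both were in all lists. Cul1 (ENSMUSG00000029686), the scaffold that holds F-box receptors, had a region on chromosome 6, 47454448 to 47454813, centred 126.5 bases before a start. Its fold enrichments were 5.10, 5.16 and 6.44, at percentiles of 49.9, 63.6 and 81.4. Cul5 (ENSMUSG00000032030), the scaffold that works with SOCS-box receptors, had 5.04, 5.25 and 5.15, at percentiles of 48.1, 65.8 and 54.8. Its region on chromosome 9, 53667216 to 53667637, was centred 80.5 bases past the start, and the noncoding Gm16124 was named there too. Cul1 and Cul5 both sat in the middle or upper ranks of each list. Cul4a, Cul4b, Ddb1, Rbx1 and Crbn, the mouse genes for parts of the ligase that holds Cereblon, had no region in any list. Of all protein-coding genes only 9.51% had one, so its lack in these few genes sets them apart from no others.

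F-box receptors, which pick substrates for Cul1, were led by a pair in all lists. Fbxl4 (ENSMUSG00000040410), whose protein restrains removal of mitochondria, had a region on chromosome 4, 22357499 to 22357910, centred 161.5 bases past the start. Its fold enrichments were 5.57, 7.05 and 6.31, at percentiles of 65.9, 89.3 and 79.4. Fbxl19 (ENSMUSG00000030811), which encodes a protein with a CpG-binding zinc finger, had 4.57, 6.74 and 6.27, at percentiles of 28.5, 87.4 and 78.4. Its region on chromosome 7, 127745503 to 127746375, was centred 339 bases before the nearest listed start. Fbxl4 ranked above the median in every list, and Fbxl19 did so in replicates 2 and 3 but not in replicate 1. Fbxw7, the receptor for Myc and cyclin E, had 6.41 and 6.39 in replicates 2 and 3. Its region was deep inside the gene, on chromosome 3, 84912529 to 84912849, 66.5 kb from the nearer gene end. Fbxo3 had 5.92 and 6.91 and Fbxo47, a germ cell gene, had 5.46 and 5.06 in the same replicates. Fbxo11, the receptor for Bcl6, had 3.96 and 5.03 in replicates 1 and 3.

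Single lists added 7 F-box genes. Fbxl7 had the highest percentile of any member peak, 94.7 in replicate 2, with a fold enrichment of 8.73 on chromosome 15, 26672603 to 26672863. That peak lay 223 kb past the start, inside the gene, and was in that list alone. The weakest member peak by percentile, that of Fbxw4 in replicate 1, had a fold enrichment of 2.48 at a percentile of 0.657. Kelch adaptors, the receptors of Cul3, had no region in all lists. Klhl24 had 3.99 and 4.44 in replicates 2 and 3, and Klhl9, which acts in mitosis, had 4.95 in replicate 1 at a percentile of 43.9, centred 1.5 bases from the start.

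RING ligases of the RNF group had regions in all lists at Rnf24 and Rnf166. Rnf24 (ENSMUSG00000048911) had 5.44, 4.98 and 6.08, at percentiles of 62.1, 57.7 and 75.7, centred 26 bases before the start on chromosome 2, 131352750 to 131353086. Rnf166 (ENSMUSG00000014470) had 4.74, 4.23 and 4.62, at percentiles of 35.4, 30.1 and 36.4. Its region on chromosome 8, 122473757 to 122474362, lay 1.66 kb past the listed start, and the protein-coding gene model Gm20388 was named there too. Rnf166 had the narrowest range of percentiles of the 10 members in all lists, and Rnf24 ranked above the median in every list. In exactly 2 lists were Rnf149 and Rnf167, both transmembrane ligases, and Rnf44. Rnf167 had 5.93 in replicate 2 and 4.23 in replicate 3, Rnf149 had 4.04 and 5.07 there, and Rnf44 had 3.77 and 5.00 in replicates 1 and 2. A further 8 RNF genes were in 1 list, among them Rnf20, a ligase for histone H2B (3.83 in replicate 2), and Rnf145 (5.33 in replicate 3, at a percentile of 59.6).

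Of the TRIM ligases, Trim13 (ENSMUSG00000035235), which encodes a ligase of the endoplasmic reticulum, was in all lists. It had 3.69, 7.93 and 5.997, at percentiles of 4.31, 92.4 and 74.5, centred 21 bases before a start on chromosome 14, 61599277 to 61599705. Trim13 was thus near the bottom of the list of replicate 1 and near the top of that of replicate 2, the widest range among the 10. Trim30a, known to restrain Toll-like receptor signalling, had 4.64 in both replicate 2 and replicate 3, centred 586.5 bases before a start. Trim52 had 6.46 in replicate 2 at a percentile of 85.7, but its region lay 79.1 kb from the gene. Other TRIM genes in 1 list were Trim7, Trim33, Trim45 and Trim62, at 4.31 to 5.43. March6, a ligase of the endoplasmic reticulum that acts on an enzyme of cholesterol synthesis, had 4.74 and 6.27 in replicates 2 and 3. HECT ligases, which take ubiquitin onto themselves before passing it on, were Ube3a, with 3.51 and 4.22 in replicates 2 and 3, and Ube3b, with 4.21 in replicate 2.

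Among deubiquitinases, Otud7b and Usp28 were in all lists. Among the 10 members in all lists, ordered by their lowest percentile, Usp28 stood first (72.9), then Fbxl4 (65.9) and Otud7b (59.1). Otud7b (ENSMUSG00000038495), known to limit non-canonical NF-kappa-B signalling, had 6.36, 5.02 and 7.59, at percentiles of 82.1, 59.1 and 90.4. Its region on chromosome 3, 96104382 to 96104807, was centred 0.0905 kb from an end of the gene. Usp28 (ENSMUSG00000032267), known to oppose Fbxw7 on substrates such as Myc, had 5.87, 5.62 and 6.86, at percentiles of 72.9, 74.4 and 85.8. It was centred 151 bases before a start on chromosome 9, 48984928 to 48985540. Otud7b, Usp28 and Fbxl4 were the 3 members whose peaks kept a −log10 q of 5 or more in all lists. Usp3, which removes ubiquitin from histone H2A, had 5.21 and 4.95 in replicates 2 and 3, Usp53 had 4.69 and 5.96, and Otud6b had 5.18 and 4.11. Usp16, also a histone H2A deubiquitinase, had 6.09 in replicate 3 alone, at a percentile of 76.0. Usp37 and Otud5 had 4.30 and 4.78 in replicate 2 alone.

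Proteasome genes had no region in all lists and 3 in exactly 2. Psmb3, a subunit of the catalytic core, had 6.78 and 4.71 in replicates 2 and 3. Psme2, a subunit of the interferon-induced activator, had 4.62 and 6.19 there. Psmd5, an assembly chaperone of the regulatory particle, had 4.02 and 5.16 in replicates 1 and 2. Psma1, a core subunit, had 5.40 in replicate 2 and Psmc2, an ATPase of the regulatory particle, 3.59 in replicate 3. All 5 proteasome genes had their region within 1 kb of the start, against 77.1% of members with a start and 62.2% of all pairs. This was not particular to them: it also held for 5 of 5 E2 enzymes and 4 of 4 USP deubiquitinases with a start. For F-box receptors it was 6 of 9 and for RNF ligases 5 of 10, with Rnf20 counted as farther though its region overlapped an end of the gene. For the 0 of 51 in all lists the interval reached 6.98%, which holds the 2.01% of all genes.

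Peaks of members were of middling strength. Median percentiles were 32.0, 57.7 and 51.5 in replicates 1, 2 and 3 (mean 47.0, SD 13.4, n = 3), against 49.9, 49.0 and 49.2 for all protein-coding gene peaks. Median fold enrichments were 4.65, 4.98 and 5.04 against 5.10, 4.72 and 4.95. Replicate 1 was the list where members ranked low, and it held 16 of them. At a percentile of 90 or more were 0 of 16, 2 of 45 and 1 of 38 member peaks, against 10.3%, 9.49% and 9.50% of the peaks of all protein-coding genes. Those 3 were Trim13 and Fbxl7 in replicate 2 and Otud7b in replicate 3.

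Members in all lists had higher median ranks than members in 1 list, as did other genes. For members in all lists median percentiles were 49.0, 64.7 and 77.0, against 57.6, 77.5 and 70.0 for all protein-coding gene peaks of that kind. For members in 1 list (2, 19 and 12 peaks) they were 22.3, 38.2 and 24.8, against 25.3, 38.7 and 28.0. Members in all lists stood below other such genes in replicates 1 and 2 and above them in replicate 3, and the 10 genes do not settle a direction.

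**Figure D4:**
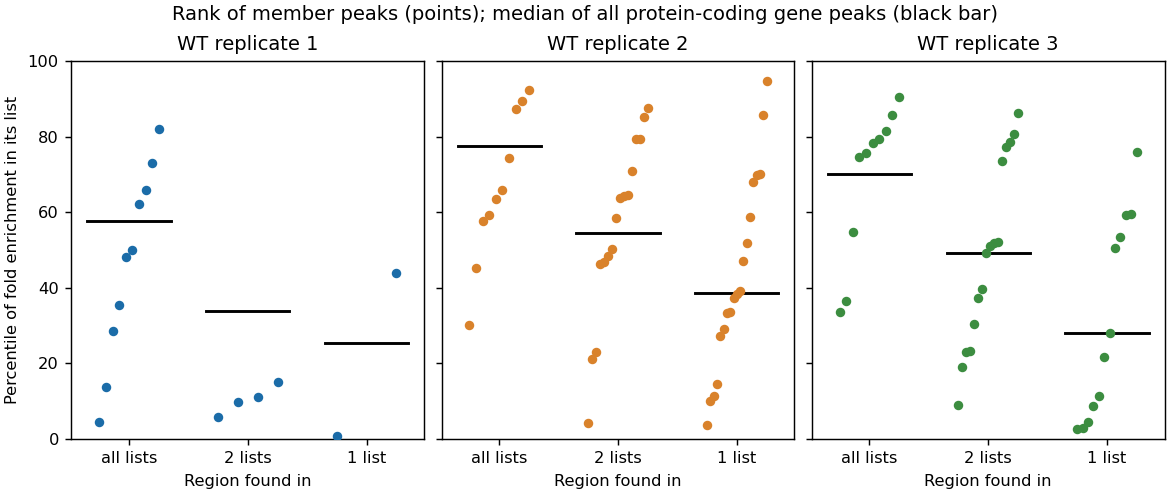
Percentile of fold enrichment within its list (vertical axis) of each member peak, by the number of lists that held the region, with 1 panel per WT replicate. Points are member peaks and black bars are medians of all protein-coding gene peaks of the same kind. Points of the 10 members in all lists run from 4.31 to 82.1, 30.1 to 92.4 and 33.5 to 90.4.

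Other genes of the ubiquitin system, whose names the rule does not take, were counted in 11 lists with 207 genes. Of these, 35 had a region in any list (16.9%, interval 12.1 to 22.7), 18 in 2 or more (8.70%, interval 5.24 to 13.4) and 10 in all (4.83%, interval 2.34 to 8.70), beside the 9.51%, 4.43% and 2.01% of all protein-coding genes. RING ligases with other names had 13 of 61 with a region, and 6 of these were in all lists. Ubr7, a histone H2B ligase, had 7.02, 9.03 and 9.71, at percentiles of 87.5, 95.3 and 95.1, which placed it above each of the 10 members found in all lists, in every list. Znrf3, which clears Wnt receptors, had 4.79, 11.9 and 7.50, and Siah2 had 6.50, 5.82 and 6.49. Zfp91 had 4.82, 4.39 and 7.11, and Mex3c had 5.07, 6.58 and 4.59. Topors and Mylip were in 2 lists, and the Mylip region lay 30953 bases from the gene.

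HECT ligases with other names had 5 of 17, with Huwe1 in 2 lists. Deubiquitinases with other names had 5 of 23, with Otulin, the linear chain deubiquitinase, and Mindy1 in 2 lists. In all lists were also Pomp, the proteasome maturation factor (4.85, 5.24 and 5.30), Senp5, a SUMO protease (5.29, 4.90 and 6.30), and Anapc16, of the mitotic ligase APC/C (5.49, 3.62 and 4.11). The Anapc16 region lay 12543 bases from the gene. VCP and shuttle factors had 4 of 19 with a region, with Ubqln4 in 2 lists beside Pomp, and the SUMO pathway 2 of 16, with Pias4 in 2. E1 and neddylation genes had 2 of 13, with Cand1, which exchanges cullin receptors, in 2 lists. Ubiquitin genes had 1 of 4, Ubb, in replicate 2 alone. Of the COP9 signalosome 0 of 10 had a region, and core cullin partners (Dda1), DCAF receptors (Dcaf6) and APC/C subunits had 1 of 16, 1 of 12 and 1 of 16.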

How the data were processed

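Ikaros ChIP-seq peak lists of 3 WT libraries were used, 1 list per library per the peak names. Per the submitters' processing notes, Subread, Picard, SAMtools, MACS2, edgeR 3.20.0 and build mm10 were used, with no roles given. An input sample was set aside per the labels' protocols. Whether it was the control in peak calling, the q threshold and the gene annotation are not given in the sources used here. The deposited columns hold, per the file headers, a fold enrichment (a linear ratio), −log10 values of p and q, the gene, its biotype and its distance. The list named R4 belongs to WT replicate 3, whose description ends in 4.

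Rows were reduced to 1 per peak (from 800, 2414 and 1595). Peaks sharing at least 1 base became regions, and members came from the authors' gene column. All 61 members matched the RefSeq gene table (GRCm38.p6), 1 by synonym, as did 2083 of 2145 coding names. Members and gene lists were chosen with earlier results of these data known. Named genes were members in all or exactly 2 lists, the 2 strongest per list of the others, and other ubiquitin genes in 2 or more lists, of which 2 are not reported here. Other genes of 1 list were chosen after their values were seen. Without a group to compare, no test was run. Intervals are Clopper-Pearson at 95%. Tables were handled with pandas 2.3.3 and NumPy 2.4.6 in Python 3.11.15, intervals came from SciPy 1.17.1 and plots from matplotlib 3.10.9. Merging was tested on simulated data. Alternatives were stricter q, other overlap, equal list lengths, other gene assignment, other distances and motifs, and leaving out each replicate.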

Additional observations from a re-analysis of the deposited data

How the results depend on the processing

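No paired analysis was possible because only WT lists were used and no groups were compared. The count of 28 members in 2 or more lists was 10 at a −log10 q of 5 or more, 11 with lists cut to equal length by p, and 12 to 24 without 1 replicate. Fewer peaks enter under a stricter q or an equal length, by construction. At a −log10 q of 2 or more, with a wider minimum overlap, within 1 kb by the authors' distance, counted by gene, or by the reference gene table, it was 24 to 29. The 10 members in all lists were 3 at a −log10 q of 5 or more, 7 with equal lengths, 8 with q held to 2 on that scale, and 10 under the other alternatives. At a −log10 q of 5 or more, 25 members were left, and those shares stood at 40% (interval 21.1 to 61.3) and 12% (interval 2.55 to 31.2). All protein-coding names had 50.5% and 22.7%, which these intervals held. Of member peaks with a start, 82.1% lay within 1 kb of it, 66.7% within 250 bases, 88.5% within 5 kb, 85.7% with the stricter q, and 76.5% to 92.5% leaving out each replicate. Median percentiles of members in all lists were 49.0 in replicate 1 and 77.0 in replicate 3, and ranks by −log10 p gave 29.3, 56.6 and 45.1 for all members. TGGGAA in place of GGGAA was in 35.3% of the 34 members with a region over a listed promoter, with 1 promoter counted per gene.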

Other observations

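Assigning regions to the reference gene table (genes overlapped, otherwise the nearest within 50 kb) instead of the authors' gene column added Psma3, Ube2h and Usp27x and lost Trim52. Psma3, a core subunit of the proteasome, then had a region in 2 lists, and Ube2h and Usp27x in 1. These genes were chosen after their values were seen.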
